A study of Mus musculus with 4 samples.

Results

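Genes that tell monocytes, tissue-resident macrophages and alternatively activated macrophages apart were followed in RNA from tumor-associated macrophages (TAMs). They were chosen by name from what is known of each, as 3 monocyte genes (*Ly6c2*, *Ccr2*, *Plac8*), 3 resident macrophage genes (*Lyve1*, *Folr2*, *Timd4*) and 4 genes of the response to interleukin 4 (*Retnla*, *Chil3*, *Mgl2*, *Il4ra*), and are 10 of the 54532 genes in the count table. Mice received an implant of cells of the mouse neuroblastoma line NB9464, no treatment was given, and TAMs were taken from the tumors on day 40 with magnetic beads against CD11b and F4/80. The mice were on the C57BL/6 background and a few weeks old, and they were either Syk MC-WT or Syk MC-KO, the latter made by crossing floxed *Syk* mice with a lysozyme M (LysM) Cre transgene, which acts in the myeloid lineage, neutrophils and monocytes included. Libraries M7 and M8 carry the label Syk MC-WT (WT-labelled below) and M9 and M10 the label Syk MC-KO (KO-labelled). Whether the controls carried the floxed allele or the Cre, and whether a library came from 1 animal or several, is not given in the sources used here, so the p-values measure only the spread between these libraries, which may be technical. The labels also name bone marrow-derived macrophages in the RNA step, and the series title names an adoptive transfer.

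Inflammatory monocytes leave the bone marrow through CCR2, the receptor for CCL2 and related chemokines, and lose Ly6C as they become macrophages in a tissue. Resident macrophages are seeded early and renew in place, and those beside vessels often carry LYVE1, FOLR2 and TIM-4. Interleukin 4 and interleukin 13 bind receptors that contain the IL-4 receptor alpha chain, JAK kinases then activate the transcription factor STAT6, and STAT6 turns on genes such as *Retnla*, *Chil3* and *Mgl2*.

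Total counts ran from 20755886 to 23518045 per library. With TMM scaling *Syk*, the targeted gene, went against the labels. It stood at 25.5 ± 3.35 CPM (SD, n = 2, with counts set relative to the TMM-scaled library size) in the WT-labelled libraries. In the KO-labelled ones it stood at 178 ± 25.0 CPM (log2 fold change 2.80, edgeR adjusted p = 0.000674). On that scale 10 macrophage markers had a median log2 fold change of 3.01, and *Syk* was not set relative to marker genes. *Lyz2*, whose locus carries the LysM Cre, was lower in the KO-labelled libraries (log2 fold change −4.13). The gene counts do not separate transcripts with and without a deleted exon, and every direction below is for the libraries as labelled. The libraries also differed in makeup. The 10 macrophage markers (such as *Csf1r*, *Adgre1* and *C1qa*) summed to 776 to 1122 CPM in the WT-labelled libraries and to 5799 to 9212 in the KO-labelled ones, all 10 of them called higher, and the 8 fibroblast markers (such as *Col1a1* and *Dcn*) summed to 12689 to 14596 and to 4094 to 5029, with 5 called lower. None of these 18 markers was at 0. Mitochondrial genes took 2.20% and 2.34% of the counts in M7 and M8, 6.00% in M9 and 15.9% in M10. In RNA of a mixed preparation, fewer cells of a type and less RNA per cell cannot be told apart.

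All 9 members that passed the filter on low counts were called higher in the KO-labelled libraries with TMM scaling and 0 lower (edgeR's quasi-likelihood test, Benjamini-Hochberg adjusted p under 0.05 over 16451 genes), whereas with libraries scaled to macrophage markers *Lyve1*, *Folr2* and *Il4ra* turned below 0, and with scaling to pan-leukocyte markers *Plac8* and *Chil3* did too. Of all genes tested, 22.7% were called higher and 16.7% lower. All 10 members had both KO-labelled libraries above both WT-labelled libraries, which 38.0% of all tested genes did, while 37.2% had both below. The log2 fold changes ran from 1.58 for *Lyve1* to 4.84 for *Retnla*, with a median of 3.77 over the 3 monocyte genes, 1.97 over the 2 resident genes tested and 3.08 over the 4 IL-4 type genes, beside 0.02 over all genes and 3.01 over the 10 macrophage markers.

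**Figure D1:**
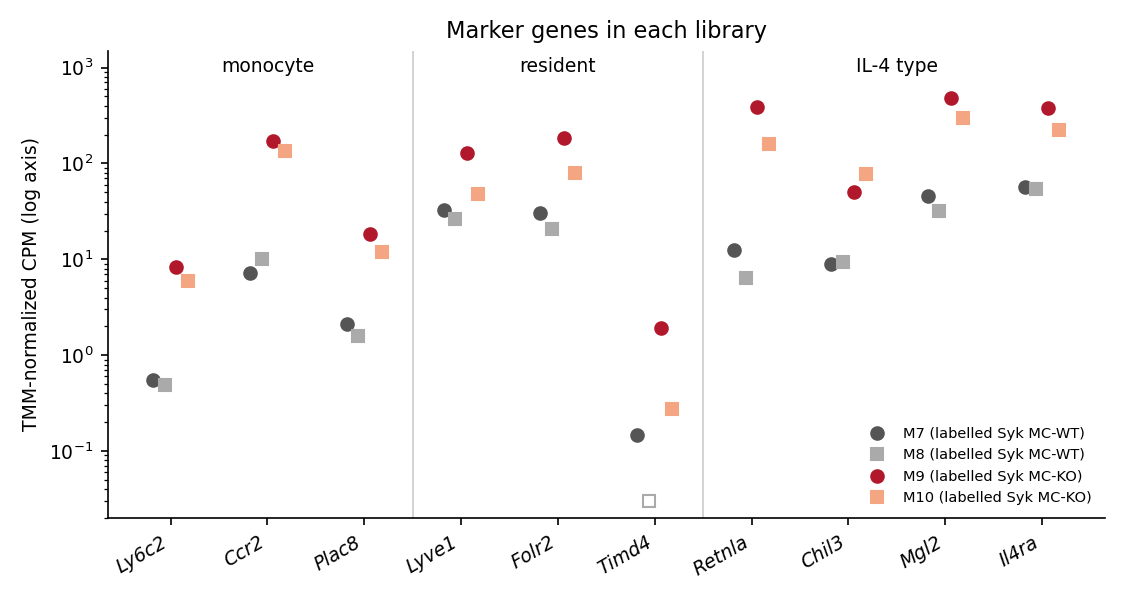
Level of each of the 10 genes in each library, as TMM-scaled CPM on a log axis, with filled symbols for measured values and an open symbol at the foot of the axis for a count of 0 (*Timd4* in M8). On this scale, for every gene, both KO-labelled libraries (M9, M10) lie above both labelled Syk MC-WT (M7, M8), and M9 lies above M10 for every gene except *Chil3*. Scaled to macrophage markers, *Lyve1*, *Folr2* and *Il4ra* turn the other way.

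*Ccr2* (ENSMUSG00000049103, chromosome 9, 124101950 to 124113557, plus strand, build GRCm38), the chemokine receptor that recruits monocytes, had 198 and 245 counts in M7 and M8 and 3563 and 2507 in M9 and M10, or 7.22, 9.97, 173 and 137 CPM. The 2 libraries of each label lay close together and the labels were far apart. The mean rose 18.0-fold, from 8.59 ± 1.95 to 155 ± 25.7 CPM (SD, n = 2, log2 fold change 4.17, standard error 0.24, adjusted p = 0.000486).

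*Plac8* (ENSMUSG00000029322, chromosome 5, 100553725 to 100572245, minus strand), a small cysteine-rich protein gene abundant in Ly6C-high monocytes, had 58, 39, 377 and 218 counts in M7, M8, M9 and M10. It rose 8.15-fold, from 1.85 ± 0.373 to 15.1 ± 4.54 CPM (log2 fold change 3.02, standard error 0.36, adjusted p = 0.00213). Both of its KO-labelled libraries lay well above the others.

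*Ly6c2* (ENSMUSG00000022584, chromosome 15, 75108158 to 75111970, minus strand), which encodes the Ly6C antigen used to sort inflammatory monocytes, was the lowest of the monocyte genes, with 15, 12, 173 and 108 counts. It rose 13.8-fold, from 0.518 ± 0.0414 to 7.14 ± 1.78 CPM (log2 fold change 3.77, standard error 0.45, adjusted p = 0.00218). Its value depends on how reads were divided between *Ly6c2* and its near copy *Ly6c1*, which endothelial cells also express. The coding sequences of both genes, each 393 bases, match at 384 bases (97.7%), and the longest stretch without a difference spans 188 bases. Over whole transcripts, *Ly6c2* shares 21.4% of its 31-base words with *Ly6c1*. Coding bases 1 to 260 of each are printed 5′ to 3′ because they show how alike the coding parts are. In capitals are 7 of the 9 differing bases, and the others lie further on.
Ly6c2: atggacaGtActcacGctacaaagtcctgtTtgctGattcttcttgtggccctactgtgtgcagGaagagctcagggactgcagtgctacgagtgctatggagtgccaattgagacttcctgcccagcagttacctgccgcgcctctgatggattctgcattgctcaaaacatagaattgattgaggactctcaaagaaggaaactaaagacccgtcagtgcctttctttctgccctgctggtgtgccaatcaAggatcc
Ly6c1: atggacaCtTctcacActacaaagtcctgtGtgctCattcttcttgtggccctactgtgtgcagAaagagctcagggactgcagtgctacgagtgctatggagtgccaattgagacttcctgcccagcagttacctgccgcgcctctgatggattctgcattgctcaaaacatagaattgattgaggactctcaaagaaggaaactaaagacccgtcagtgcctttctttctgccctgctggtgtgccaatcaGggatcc
The differences lie toward both ends, and the middle of the coding sequence, bases 66 to 253, carries none.

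*Ly6c1* had 289, 245, 70 and 154 counts in M7, M8, M9 and M10 (log2 fold change −0.80, adjusted p = 0.192). The pair together had 304, 257, 243 and 262 counts, so the sum was nearly level while its division was not. *Ly6c2* took 4.93% of the pair in M7 (95% Wilson interval 3.01 to 7.98), 4.67% in M8 (2.69 to 7.98), 71.2% in M9 (65.2 to 76.5) and 41.2% in M10 (35.4 to 47.3). These intervals cover counting error only and take the division of reads between the genes as given. Both KO-labelled libraries lay above both others, and M9 and M10 also differed from each other beyond their intervals.

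**Figure D2:**
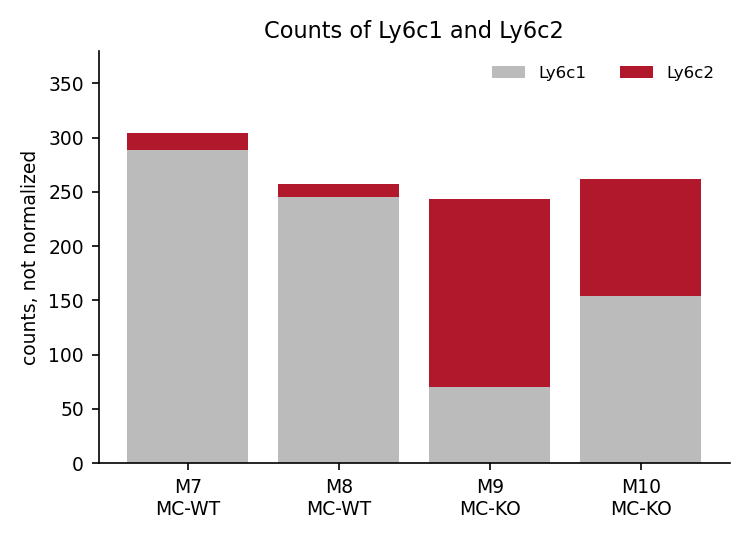
Counts of *Ly6c1* and *Ly6c2* in each library, not normalized, stacked from 0, with *Ly6c1* in grey and *Ly6c2* in red. The summed count stays between 243 and 304, while the *Ly6c2* part is 15 and 12 counts in M7 and M8 and 173 and 108 in M9 and M10.

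The resident macrophage genes tested had smaller fold changes than the monocyte genes, and M9 and M10 lay further apart. *Lyve1* (ENSMUSG00000030787, chromosome 7, 110850607 to 110863239, minus strand), a hyaluronan receptor of perivascular macrophages and of lymphatic endothelium, had 900, 652, 2671 and 884 counts, or 32.8, 26.5, 129.7 and 48.2 CPM in M7, M8, M9 and M10. M10 lay nearer to M7 than to M9. The mean rose 2.997-fold, from 29.7 ± 4.44 to 88.9 ± 57.6 CPM (log2 fold change 1.58, standard error 0.44, adjusted p = 0.0303). This call was lost without M8 (log2 fold change 1.43, with M7 alone on the WT-labelled side). It was also lost with scaling by library size only (1.08, adjusted p = 0.112), where 10.2% of all genes were called higher and 32.9% lower. Without M9, with M10 alone on the KO-labelled side, the log2 fold change was 0.61.

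*Folr2* (ENSMUSG00000032725, chromosome 7, 101839988 to 101857194, minus strand), the folate receptor of resident and perivascular macrophages, had 826, 507, 3758 and 1455 counts, or 30.1, 20.6, 182.4 and 79.3 CPM. M9 again held more than M10, and M10 was well above M7 and M8. The mean rose 5.16-fold, from 25.4 ± 6.70 to 130.9 ± 72.9 CPM (log2 fold change 2.37, standard error 0.41, adjusted p = 0.00693). Without M9, with M10 alone on the KO-labelled side, the log2 fold change was 1.56.

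*Timd4* (ENSMUSG00000055546, chromosome 11, 46810800 to 46844332, plus strand), which encodes the phosphatidylserine receptor TIM-4 of long-lived resident macrophages, had 4, 0, 40 and 5 counts. It reached the filter's minimum only in M9 and was not tested, so no fold change is given. The counting floor of 3 counts was 0.109 to 0.163 CPM in a library, so the 0 in M8 allows up to 0.122 CPM, and M10, at 0.272 CPM, held little more than M7, at 0.146 CPM. Most of the *Timd4* counts therefore came from M9.

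*Lyve1* also marks lymphatic vessels. Of the 6 lymphatic endothelial markers, *Pdpn*, which activated macrophages express too, was called higher (log2 fold change 3.57). *Prox1*, the transcription factor that defines lymphatic endothelium, had 24, 34, 14 and 19 counts (log2 fold change −0.40, adjusted p = 0.651), *Flt4* had a log2 fold change of −0.99 (adjusted p = 0.0542), and *Ccl21a*, *Reln* and *Mmrn1* did not pass the filter. The 6 summed to 15.5 to 17.0 CPM in the WT-labelled libraries and to 63.7 to 134 in the others. *Pdpn* carried that rise, since the other 5 summed to 8.06 and 8.50 CPM in M7 and M8 and to 4.03 and 4.36 in M9 and M10.

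The receptor stands first in the IL-4 pathway. *Il4ra* (ENSMUSG00000030748, chromosome 7, 125552120 to 125579474, plus strand), the chain shared by the IL-4 and IL-13 receptors, had 1543, 1336, 7791 and 4060 counts, or 56.3, 54.4, 378.2 and 221.2 CPM. M7 and M8 were nearly equal and M9 and M10 were both far above them. The mean rose 5.42-fold, from 55.3 ± 1.34 to 299.7 ± 111 CPM (log2 fold change 2.44, standard error 0.28, adjusted p = 0.00192).

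*Retnla* (ENSMUSG00000061100, chromosome 16, 48842551 to 48844461, plus strand), which encodes the secreted protein RELM-alpha or Fizz1, had the largest fold change of the members tested. Its counts were 343, 157, 7906 and 2924, or 12.5, 6.39, 383.8 and 159.3 CPM. The labels were far apart, and each pair of libraries also differed widely within itself. The mean rose 28.7-fold, from 9.45 ± 4.32 to 271.6 ± 158.7 CPM (log2 fold change 4.84, standard error 0.54, adjusted p = 0.00180). Without M9, with M10 alone on the KO-labelled side, the log2 fold change was 3.98.

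*Mgl2* (ENSMUSG00000040950, chromosome 11, 70130329 to 70137550, plus strand), a galactose-binding lectin (CD301b) of macrophages and dermal dendritic cells, had 1250, 788, 9944 and 5495 counts, or 45.6, 32.1, 482.8 and 299.4 CPM. It rose 10.1-fold, from 38.8 ± 9.55 to 391.1 ± 129.6 CPM (log2 fold change 3.33, standard error 0.31, adjusted p = 0.00115). *Clec10a*, its near copy that encodes CD301a, rose by less (log2 fold change 1.39, adjusted p = 0.00389), and was called lower with macrophage marker scaling (−1.43), where *Mgl2* was not called (0.49). The *Mgl2* to *Clec10a* count ratio was 1.17, 1.04, 4.69 and 3.73 in M7, M8, M9 and M10, and was higher in both KO-labelled libraries.

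*Chil3* (ENSMUSG00000040809, chromosome 3, 106147554 to 106167564, minus strand), which encodes the chitinase-like protein Ym1, had 245, 228, 1043 and 1438 counts, or 8.93, 9.28, 50.6 and 78.4 CPM. It was the only member higher in M10 than in M9, with an M9 to M10 ratio of 0.646 where the other 9 ran from 1.27 to 7.13. The mean rose 7.08-fold, from 9.10 ± 0.245 to 64.5 ± 19.6 CPM (log2 fold change 2.82, standard error 0.25, adjusted p = 0.00101). *Chil3* is also expressed by neutrophils and their precursors and by monocytes, and the 8 neutrophil markers summed to 28.9 to 40.6 CPM in the WT-labelled libraries and to 219 to 446 in the others, with 5 called higher, beside 22.7% of all genes tested. Their part in the *Chil3* values was not tested.

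The sequence just upstream of the start of transcription was searched on both strands, from 250 bases before the start, in RefSeq promoters of build GRCm38.p6, for TTC and GAA set 4 bases apart, the spacing STAT6 prefers, and 3 bases apart, the spacing of other STAT factors. Promoters of 9 members were in the set. Of 32851 promoters, 5.85% held the former and 7.02% the latter. *Retnla* held the former and *Chil3* the latter, and their windows are printed here because both genes are textbook STAT6 targets. Each window is read 5′ to 3′ along its gene's strand, with the matched letters in capitals. The *Retnla* window is chr16:48842409-48842528 (plus strand) and its match, TTCACAAGAA, lies at −145 to −136 from the start. The *Chil3* window is chr3:106167673-106167791 (minus strand) and its match, TTCTTAGAA, lies at −172 to −164.
Retnla: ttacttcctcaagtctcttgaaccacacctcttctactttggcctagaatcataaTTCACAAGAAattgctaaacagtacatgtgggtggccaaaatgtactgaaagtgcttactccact
Chil3: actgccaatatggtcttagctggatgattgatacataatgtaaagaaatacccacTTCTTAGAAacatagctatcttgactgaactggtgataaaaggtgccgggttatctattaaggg
*Plac8* held the letters with the STAT6 spacing before an inner start. The promoters of *Ly6c2*, *Ccr2*, *Folr2*, *Timd4*, *Mgl2* and *Il4ra* held neither in these windows. Starts are those of RefSeq and can lie inside the gene bounds given above. The windows of *Ccr2* (124101933 to 124102182) and *Il4ra* (125552021 to 125552270) lie mostly within those bounds. A *Folr2* window (101845332 to 101845581) and the inner *Plac8* window (100563097 to 100563346) lie wholly within them. Letters of the myeloid factor PU.1 (GAGGAAGT, in 2.44% of promoters) were found for *Ly6c2* and *Retnla*, and those of C/EBP factors (TTGCNNAA, in 9.56%) for *Plac8* and *Retnla*. A match is a description of letters and not a bound site.

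All 10 macrophage markers were called higher, so the members were also expressed per 1000 counts of the 10 macrophage markers in the same library, a ratio that needs no scaling between libraries. On this base 2.36% of all genes tested had both KO-labelled libraries above both others and 93.0% had both below, and members of each group differed among themselves. *Retnla* stood at 11.1 and 8.23 in M7 and M8 and at 41.7 and 27.5 in M9 and M10, *Ccr2* at 6.43 and 12.8 and at 18.8 and 23.6, and *Ly6c2* at 0.487 and 0.629 and at 0.912 and 1.01. These genes, and *Mgl2* at 40.6 and 41.3 and at 52.4 and 51.6, kept both KO-labelled libraries above the others. *Lyve1* lay below, as most genes did, at 29.2 and 34.2 against 14.1 and 8.31, as were *Folr2*, at 26.8 and 26.6 against 19.8 and 13.7, and *Il4ra*, at 50.1 and 70.1 against 41.1 and 38.2. *Plac8*, *Chil3* and *Timd4* overlapped between the labels. Per 1000 counts of 6 pan-leukocyte markers (1.47% of all genes above, 95.0% below), *Retnla*, *Ccr2* and *Ly6c2* again lay above and *Lyve1*, *Folr2* and *Il4ra* below, whereas *Mgl2*, at 118 and 107 against 117 and 100.4, overlapped and *Plac8*, at 5.48 and 5.30 against 4.44 and 3.98, lay below.

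**Figure D3:**
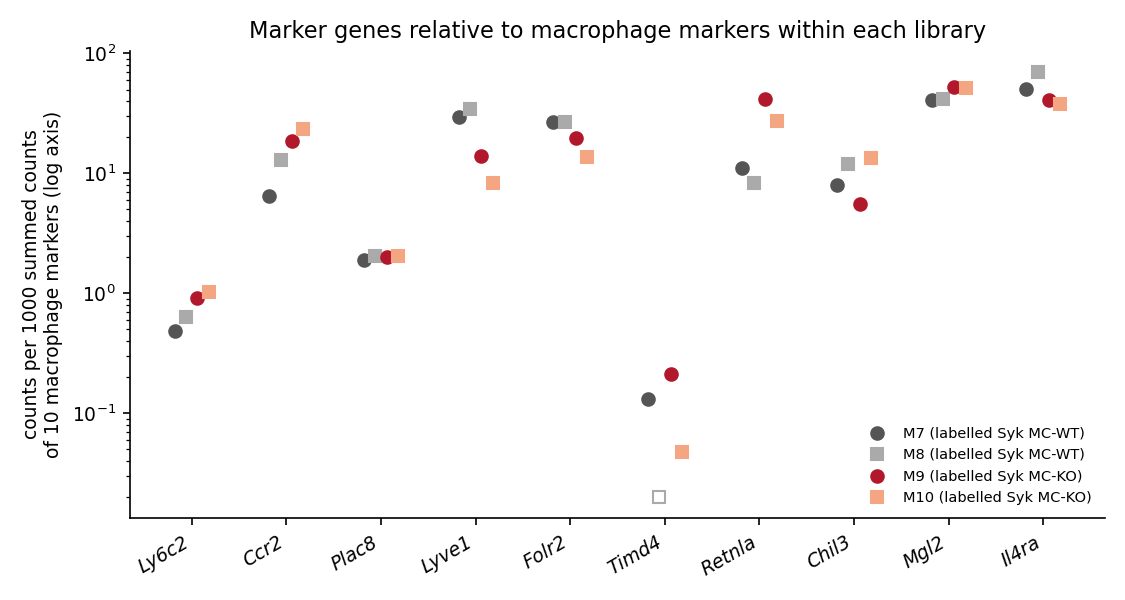
Counts of each gene per 1000 summed counts of 10 macrophage markers in the same library, on a log axis, with an open symbol for a count of 0. M9 and M10 lie above M7 and M8 for *Ly6c2*, *Ccr2*, *Retnla* and *Mgl2*, below them for *Lyve1*, *Folr2* and *Il4ra*, and overlap them for *Plac8*, *Chil3* and *Timd4*.

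A similar change of base was made in the model. In place of the sum used above, libraries were scaled to the geometric mean of the counts of the 10 macrophage markers. That scaling moved the median log2 fold change of all genes to −2.79, and with it 0.760% of genes were called higher and 87.3% lower. *Ccr2* (log2 fold change 1.28, adjusted p = 0.0167) and *Retnla* (1.98, adjusted p = 0.000270) still passed as higher, and *Lyve1* passed as lower (−1.35, adjusted p = 0.0106). The other 6 members tested passed in neither direction, with values from −0.52 for *Folr2* to 0.94 for *Ly6c2*. With scaling to 6 pan-leukocyte markers such as *Ptprc*, where the median of all genes was −3.17, *Ccr2* (0.93, adjusted p = 0.0218) and *Retnla* (1.61, adjusted p = 0.000890) were again called higher, against 0.565% of all genes, and *Lyve1* (−1.70, adjusted p = 0.000474), *Folr2* (−0.88, adjusted p = 0.0232) and *Il4ra* (−0.81, adjusted p = 0.0260) were called lower, against 90.4%. The direction of *Lyve1*, *Folr2* and *Il4ra* therefore turned with the base of comparison under both marker scalings, that of *Plac8* and *Chil3* under the pan-leukocyte scaling, and that of *Ccr2*, *Ly6c2*, *Retnla* and *Mgl2* under neither, although *Mgl2* (0.12, adjusted p = 0.722) was close to 0 under the latter.

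**Figure D4:**
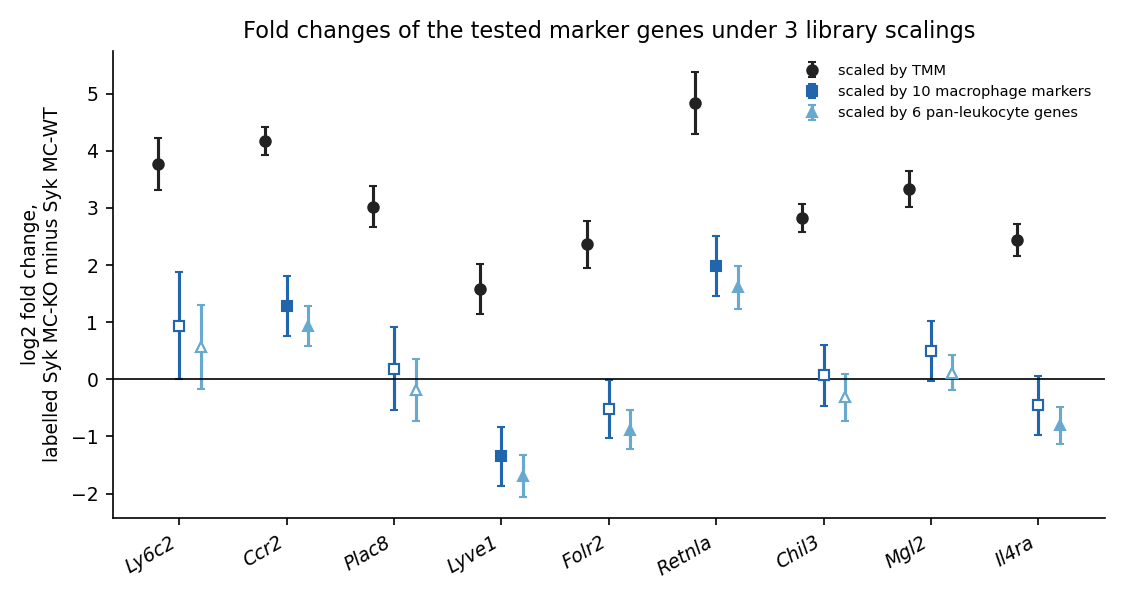
Log2 fold change (labelled Syk MC-KO minus labelled Syk MC-WT) of the 9 genes tested, with bars for the standard error, under TMM scaling and under scaling to macrophage or pan-leukocyte markers; open symbols have an adjusted p of 0.05 or more. Under TMM all 9 lie above 0, under both marker scalings *Lyve1*, *Folr2* and *Il4ra* lie below it, and *Ccr2* and *Retnla* are called higher and *Lyve1* lower under both.

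Ratios between members of 1 library do not depend on scaling either. The *Ccr2* to *Lyve1* count ratio, a monocyte receptor over a resident one, was 0.220 and 0.376 in M7 and M8 and 1.33 and 2.84 in M9 and M10, a difference of 2.76 on the log2 scale. *Ccr2* to *Folr2* was 0.240, 0.483, 0.948 and 1.72, and *Retnla* to *Lyve1* was 0.381, 0.241, 2.96 and 3.31. Within the resident genes, *Folr2* to *Lyve1* also went up, from 0.918 and 0.778 to 1.41 and 1.65. The labels did not overlap in these ratios, but the share of all genes that separate over *Lyve1* or *Folr2* was not computed. *Lyve1* had the smallest fold change of the members tested, and every other tested member over it also separated. As group means of log2 CPM, the monocyte genes minus the resident genes gave −1.65 and −1.24 in M7 and M8 and −0.33 and 0.62 in M9 and M10, and the IL-4 type genes minus the resident genes gave 1.45, 1.4999, 2.66 and 3.56. Without *Timd4*, which is low and pulls the resident mean down, the former were −3.53, −3.10, −2.33 and −1.49 and the latter −0.42, −0.36, 0.67 and 1.45. The rises between labels were 1.59 and 1.63 with *Timd4* and 1.405 and 1.45 without it, and no test was made, since 2 libraries against 2 cannot give an exact two-sided permutation p below 0.333.

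Levels can be compared between genes only per length, here as TPM (counts per kilobase of exon, scaled to a common total). In the WT-labelled libraries the order was *Mgl2* (72.9), *Folr2* (64.6), *Retnla* (62.2), *Lyve1* (39.9) and *Il4ra* (36.2), whose neighbours overlapped in the order, and then *Chil3* (21.9), *Ccr2* (4.97), *Plac8* (4.57), *Ly6c2* (0.742) and *Timd4* (0.134), of which *Ccr2* and *Plac8* overlapped. In the KO-labelled libraries *Retnla* came first at 924 ± 685 (SD, n = 2), followed by *Mgl2* (372), *Folr2* (172), *Il4ra* (99.8), *Chil3* (73.8), *Lyve1* (62.5) and *Ccr2* (44.8), each overlapping its neighbour, and then by *Plac8* (18.8), *Ly6c2* (5.15) and *Timd4* (1.09). *Ly6c2* and *Timd4* were last in both orders.

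Next come the partners of these genes, in lists drawn up by name. Of all genes tested, 22.7% were called higher and 16.7% lower with TMM scaling. With macrophage marker scaling these shares were 0.760% and 87.3%. *Ccl2*, the main monocyte chemoattractant among the CCR2 ligands, had a log2 fold change of 3.20, *Ccl7* of 2.84, *Ccl12* of 2.54 and *Ccl8* of 2.02, and 4 of 4 were called higher with TMM scaling and 0 of 4 with macrophage marker scaling (median −0.20). Of 10 other classical monocyte genes, 8 were called higher and 1 lower (median log2 fold change 1.82), against 0 and 5 with macrophage marker scaling. *Ifitm6* (3.84) and *Ms4a4c* (3.52) were among those that rose, and *Fn1*, fibronectin, which fibroblasts make in quantity, fell (−1.34). Of 9 genes of patrolling monocytes, the Ly6C-low kind, 6 were called higher and 0 lower (median 2.496), against 2 and 3 with macrophage marker scaling, led by *Treml4* (5.74), *Cd300e* (5.18) and the fractalkine receptor *Cx3cr1* (3.78). *Treml4* and *Cd300e* were the 2 still called higher with that scaling. *Treml4* had 2, 5, 139 and 154 counts in M7, M8, M9 and M10. It passed the filter on low counts only through the KO-labelled libraries.

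Of 18 other resident macrophage genes, 17 were tested, 15 were called higher and 0 lower (median log2 fold change 2.09), against 1 higher (*Marco*) and 3 lower with macrophage marker scaling. Over all genes tested the shares higher and lower were 22.7% and 16.7% with TMM scaling. With macrophage marker scaling they were 0.760% and 87.3%. *Cd5l*, a secreted scavenger protein of resident macrophages (4.63), the scavenger receptor *Marco* (4.55) and the C-type lectin *Cd209g* (3.89) rose most. *Cd209g* had 5, 0, 37 and 21 counts in M7, M8, M9 and M10. It passed the filter on low counts only through the KO-labelled libraries. *Lyve1*, at 1.58, was below that median and *Folr2*, at 2.37, above it. *Clec4f*, which marks Kupffer cells of the liver, had 0 counts in every library.

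Of the IL-4 pathway, the cytokines themselves were barely read. *Il4* had 2, 3, 8 and 3 counts and *Il13* 1, 1, 4 and 0, so neither was tested, and the decoy receptor *Il13ra2* had 3, 6, 3 and 0. The partner chains *Il2rg*, the common gamma chain (log2 fold change 3.23, adjusted p = 0.000729), and *Il13ra1* (1.25, adjusted p = 0.0125) were higher, though with macrophage marker scaling *Il13ra1* was called lower (−1.64) and *Il2rg* was not called (0.45). Of 9 signalling genes 5 were called higher and 0 lower (median 0.80), against 0 and 7 with macrophage marker scaling. With that scaling 0.760% of all genes tested were called higher and 87.3% lower, and with TMM scaling 22.7% and 16.7%. The transcription factor *Stat6* (2.46), the phosphatase *Ptpn6* (3.32), the inhibitor *Cish* (1.72), the kinase *Jak3* (1.07) and the adaptor *Irs2* (0.80) rose, whereas *Jak1* (0.20), *Tyk2* (0.08), *Jak2* (−0.28) and *Socs1* (−0.29) did not pass. Of the genes that passed, *Jak3*, *Ptpn6* and *Il2rg* are expressed mostly in blood cells, and the part of cell makeup in any of these values was not tested.

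Of 24 other genes induced by IL-4 in macrophages, 20 were called higher and 1 lower (median log2 fold change 2.84), beside a median of 3.01 for the macrophage markers. Among all genes tested, 22.7% were called higher and 16.7% lower. The chemokines *Ccl17* (6.18) and *Ccl22* (5.94) and the lipoxygenase *Alox15* (4.91) rose most, and the receptor *Flt1*, which endothelial cells express, fell (−1.34). With scaling to macrophage markers, 5 of the 24 were called higher (*Ccl17*, *Ccl22*, *Ccl24*, *Alox15* and *Itgax*) and 10 lower, beside 0.760% and 87.3% of all genes tested. *Ccl17*, *Ccl22* and *Itgax* are also expressed by dendritic cells, whose 8 markers summed to 13.6 to 15.1 CPM in the WT-labelled libraries and to 71.8 to 79.6 in the others, with 5 called higher. Their part in the values of these genes and of *Mgl2* was not tested.

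**Figure D5:**
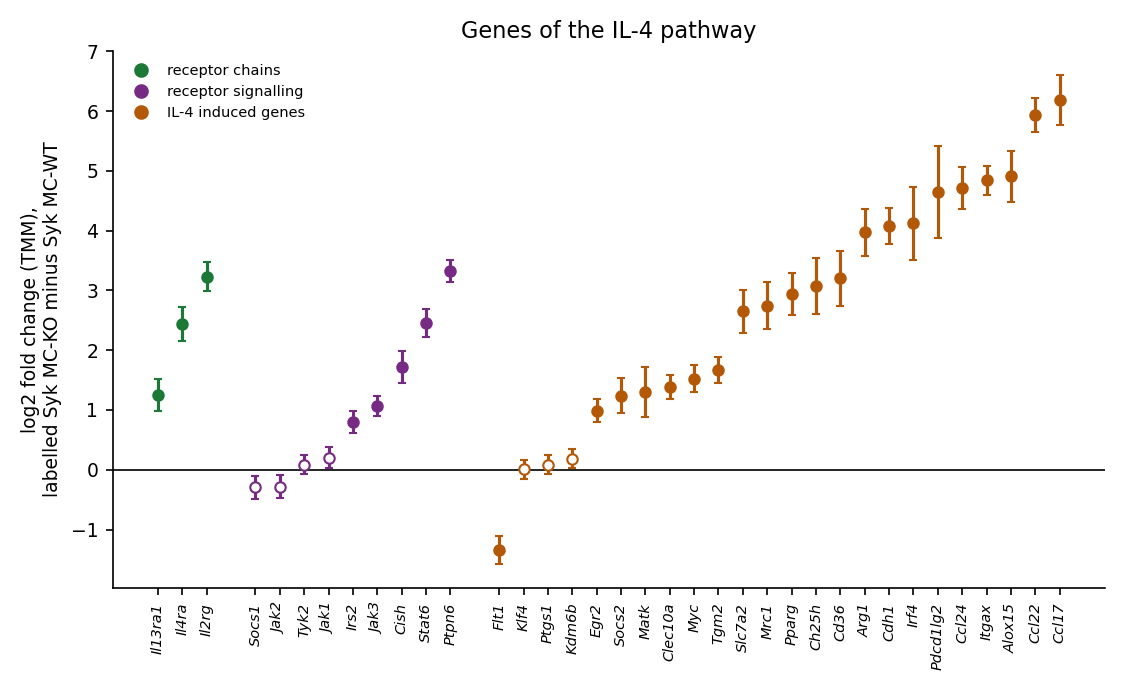
Log2 fold change (labelled Syk MC-KO minus labelled Syk MC-WT, TMM scaling) with its standard error for the tested receptor chains, signalling genes and IL-4 induced genes; open symbols have an adjusted p of 0.05 or more. *Ccl17* and *Ccl22* are highest, *Jak1*, *Jak2*, *Tyk2* and *Socs1* are close to 0, and *Flt1* is called lower.

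Relatives of the members bear on how surely their reads were placed. Of 13 paralogs, 8 were tested, 6 were called higher and 0 lower with TMM scaling, where the median log2 fold change of the 8 was 2.44, beside −0.46 with macrophage marker scaling. With TMM scaling 22.7% of all genes tested were called higher and 16.7% lower. *Chil4* shares 28.9% of the 31-base words of *Chil3* transcripts and 95.4% of its coding bases, and had 0 counts in every library, as had *Retnlb* and *Timd2*. *Mgl2* shares 19.3% of its words with *Clec10a*, *Ly6c2* shares 21.4% with *Ly6c1*, *Retnla* shares 5.45% with *Retnlg*, and *Folr2* and *Timd4* share none with *Folr1* and *Timd2*. Values of the pairs with shared words are uncertain to the extent that reads were divided between them. *Ccr1* (log2 fold change 3.17), *Ccr3* (2.27), *Retnlg* (3.45) and the TIM-3 gene *Havcr2* (2.62) were among those called higher, and *Chil1* (1.67, adjusted p = 0.116) was not. The *Retnla* to *Retnlg* count ratio was 13.7, 2.71, 18.7 and 10.5 and overlapped between the labels. *Folr1* had 1, 0, 0 and 1 counts and *Havcr1* 0, 0, 4 and 2.

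The genes most like the receptor of each group were sought among 14262 genes, by the largest difference in centred log2 CPM over the 4 libraries, as a description of 4 points that share libraries and depth. For *Ccr2* they were *Bcl2a1d* (0.12), *H2-DMb2* (0.15) and *Klrb1b* (0.19). For *Lyve1* they were *Tmem140* (0.13), *Fxyd2* (0.14) and *Fam221b* (0.17). For *Il4ra* they were *Lilr4b* (0.04), *Nos2* (0.06), which encodes inducible nitric oxide synthase, and *Lgals3* (0.06), which encodes galectin-3.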

How the data were processed

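RNA sequencing of TAMs gave 2 libraries per genotype label. The authors aligned reads to mm10 with STAR and estimated counts with Salmon in the bcbio pipeline, and the submitters' processing notes name STAR 2.6.1d and Salmon 1.4.0. The deposited values are whole-number counts per Ensembl gene, not normalized, and how they were made whole from Salmon's estimates is not given in the sources used here. The methods describe single reads in triplicate, whereas the labels describe paired reads. Salmon can divide reads among similar genes.

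Counts were analysed in R 4.3.3 with edgeR 4.0.16 (filterByExpr, TMM, glmQLFit and glmQLFTest, Benjamini-Hochberg adjustment, threshold 0.05). The TMM factor was 1.22 for M7, 1.19 for M8, 0.876 for M9 and 0.787 for M10. CPM are TMM-scaled, with the SD of 2 libraries. Fold changes set the mean of the KO-labelled libraries over that of the others, and group means of log2 values used a pseudocount of 0.5 CPM. The detection floor was 3 counts. Floors and intervals cover counting error only, because reads that carry no molecular identifier may be copies of a molecule. Positions and exon lengths came from GENCODE M21 (GRCm38), which matched 54495 of 54532 genes. Promoters came from RefSeq (GRCm38.p6), without an entry for *Lyve1*. Coding sequences came from GENCODE.

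The members, the gene lists and the tests were chosen with earlier results of these data known. Text names the members, *Syk*, *Lyz2*, the CCR2 ligands, IL-4 receptor and signalling genes and paralogs in full, up to 3 called genes per direction in the monocyte, resident and IL-4 induced lists, and the 3 nearest genes of *Ccr2*, *Lyve1* and *Il4ra*. Lymphatic endothelial markers outside that rule, other marker genes, and genes of the IL-4 induced list under marker scaling were named after their values were seen. Some genes that the rule names are not reported here. Alternatives covered DESeq2 1.42.0 (size factors and its Wald test), scaling by library size or by marker genes, filters, thresholds, pseudocounts, removal of mitochondrial genes and omission of each library.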

Additional observations from a re-analysis of the deposited data

How the results depend on the processing

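Without scaling to marker genes, every alternative kept the 9 tested members higher, and *Lyve1* alone lost its call, under scaling by library size and without M8. The count of genes called, 6476, became 14485 with macrophage marker scaling, 14966 with pan-leukocyte scaling and 4275 where a log2 change of at least 1 in size was also required, and ran from 2285 (without M8) to 9755 (without M10), with 3320 without M7. Calls were higher in 57.6% of the genes called, against 0.863% and 0.621% under macrophage and pan-leukocyte scaling. Under these, 3 and 5 of the 9 members were called. With macrophage scaling they were 2 higher and 1 lower, beside 0.760% and 87.3% of all genes tested. With pan-leukocyte scaling they were 2 higher and 3 lower, beside 0.565% and 90.4%. Signs turned for *Lyve1* (−1.35 and −1.70), *Folr2* (−0.52 and −0.88) and *Il4ra* (−0.46 and −0.81), and under pan-leukocyte scaling only for *Plac8* (−0.19) and *Chil3* (−0.32), because those markers rose between the labels. DESeq2's Wald test called the same 9 members higher, beside 19.6% of the 18316 genes it tested, and 0 lower, beside 15.9%. With no filter edgeR called *Timd4* as well (adjusted p = 0.00656), although most of its counts came from M9. DESeq2's Wald test did not call *Timd4* (adjusted p = 0.0507). The rise in monocyte minus resident genes ran from 1.11 to 2.07 when a library was left out, and from 1.405 to 1.49 with other pseudocounts or without *Timd4*. For IL-4 type minus resident genes these ranges were 1.18 to 2.08 and 1.26 to 1.75. No paired analysis was possible because the labels give no number shared between genotypes. Depth limits *Timd4*, *Il4* and *Il13*.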
